A study of Rattus norvegicus with 24 samples.

Results

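The aldehyde dehydrogenases described here are the 8 genes Aldh1b1, Aldh2, Aldh4a1, Aldh5a1, Aldh6a1, Aldh7a1, Aldh9a1 and Aldh18a1, which encode enzymes of mitochondrial and amino acid metabolism. They were taken by symbol from a table of 17420 genes. Aldh1b1 was chosen for its measured difference between Poly I:C and saline pups, so its levels against saline are a description without a test. That applies to its comparisons of Low Protein and MAM with saline as well, because they use the same 6 saline pups. The other 7 genes were chosen by family and not by a value.

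RNA was sequenced from the combined hippocampus and neocortex of each of 24 Sprague-Dawley rat pups on embryonic day 18, with 3 pups from each of 2 litters in each of 4 maternal treatment groups. Saline dams were injected with saline on gestational day 17. MAM dams received methylazoxymethanol acetate, a DNA-methylating agent, at 22 mg/kg, and Poly I:C dams received polyinosine:cytosine, a mimic of viral double-stranded RNA, at 7.5 mg/kg, also on gestational day 17 and 18 hours before collection. Low Protein dams ate a diet with 6.1% protein from gestational day 11 to 18. The study's methods give control rats an isocaloric diet with 20.3% protein over the same days, and the saline group is taken here as those controls. Which diet the dams injected with MAM or Poly I:C ate, and whether Low Protein dams had any injection, is not given in the sources used here. The treatment was given to the dam and the pup was the unit of the tests, so p-values measure the spread between pups of only 2 litters per group. The tissue label fits its markers: all 8 cortical neuron genes listed, Tbr1 and Neurod6 among them, were in the table and above the offset, and their summed value was 392 to 524 in every pup.

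Aldehyde dehydrogenases oxidize reactive aldehydes to acids with NAD or NADP as the electron acceptor. Aldh2 and Aldh1b1 are mitochondrial enzymes that clear acetaldehyde, and Aldh1b1 can also oxidize retinaldehyde. The other members act on intermediates of amino acid metabolism: Aldh4a1 and Aldh18a1 on the path between proline and glutamate, Aldh5a1 on the breakdown of the transmitter GABA, Aldh6a1 on valine and thymine, Aldh7a1 on lysine, and Aldh9a1 on the aldehydes that precede carnitine and GABA. In the brain, inherited loss of Aldh5a1 or Aldh7a1 is known to cause seizures.

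The deposited values are on the TPM scale (transcript abundance scaled for length and depth, plus an offset of 0.0001), and the values of each pup sum to 70350.1. They fall with the genomic span of a gene, introns included, so they are called normalized values here and their order between genes is not an order of transcripts. Over the 24 pups the mean normalized value was 3.25 for Aldh1b1, 2.44 for Aldh9a1, 1.13 for Aldh7a1, 0.911 for Aldh2, 0.842 for Aldh6a1, 0.765 for Aldh5a1, 0.639 for Aldh4a1 and 0.189 for Aldh18a1. Aldh1b1, highest on this scale, has the shortest span of the 8 genes, 5009 bases in the GRCr8 assembly, against 16800 to 32977 bases for the others. Reads per pup were estimated from the smallest steps between low values, at 24.3 to 68.5 megareads, and gave a median of 2042 reads per pup for Aldh9a1, 1841 for Aldh7a1, 1546 for Aldh2, 998 for Aldh5a1, 848 for Aldh6a1, 788 for Aldh4a1, 787 for Aldh1b1 and 316 for Aldh18a1. Only 49.0% to 54.5% of the low values used in a pup came out whole to within 0.05 reads, so these read numbers are approximate. In the pup with the fewest estimated reads of each gene, counting error alone would be 7.43% for Aldh18a1 and 2.97% to 4.82% for the other 7 genes.

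A gene was tested with limma on the log2 value in a fit of all 24 pups and was called at an unadjusted p under 0.05, with the p adjusted by the Benjamini-Hochberg method over all genes tested given beside it. Of the 8 members, 3 had a mean above 1 in every group (Aldh1b1, Aldh7a1 and Aldh9a1) and were tested among 5086 such genes, and the other 5 had a mean above 0.1 in every group and were tested among 9713 genes. Against saline, 9.95% of the narrower set were called for Poly I:C, 11.2% for MAM and 8.24% for Low Protein, and in the wider set 9.87%, 10.5% and 7.64%. After adjustment these shares were 0%, 0.0197% and 0% in the narrower set. Among the 7 members other than Aldh1b1, 3 were called in Low Protein (Aldh5a1 lower, Aldh9a1 and Aldh18a1 higher), 1 in MAM (Aldh5a1 lower) and 2 in Poly I:C (Aldh9a1 and Aldh18a1 higher). None of these 7 had an adjusted p under 0.05 in any comparison with saline. Contrasts between treatments were taken from the fit of the 9713 genes for every member. The 3 comparisons share the saline pups and are therefore not independent of each other.

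**Figure D1:**
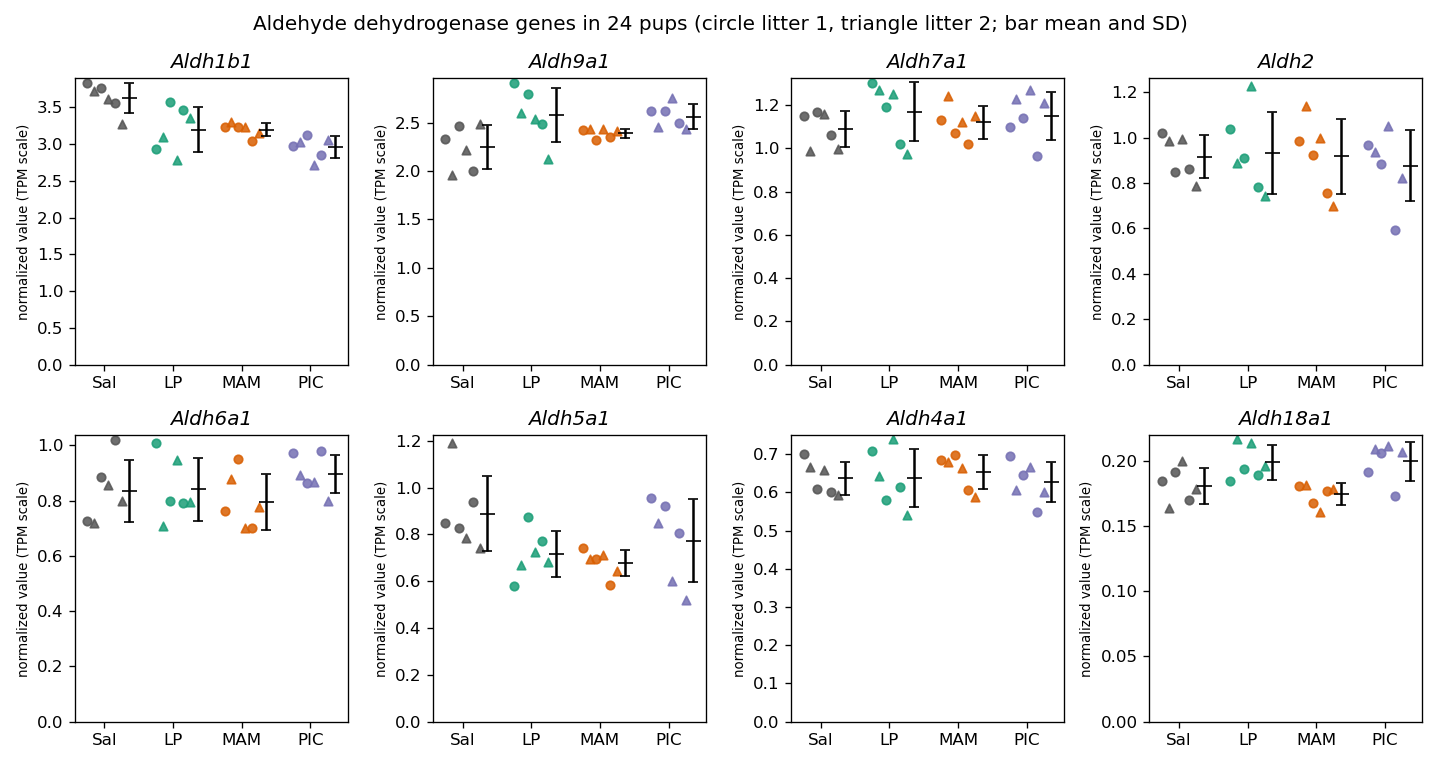
Normalized value (TPM scale, linear axis from 0) of each of the 8 genes in each of 24 pups, with circles for litter 1, triangles for litter 2, and a bar for the group mean and SD (n = 6 pups). Sal is Saline, LP is Low Protein and PIC is Poly I:C. All 6 Poly I:C pups lie below all 6 saline pups for Aldh1b1, the value for which that gene was chosen.

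Bases upstream of the start are shown for 3 members with an entry among the RefSeq promoters of the GRCr8 assembly. They are Aldh1b1, chosen on its difference from saline, and Aldh5a1 and Aldh9a1, called against saline at an unadjusted p only. Their differing base composition can be seen in this way. Of the 8 members 6 have an entry, and Aldh2 and Aldh18a1 do not. Each run gives the 250 bases before the annotated start, 5′ to 3′ on the strand of the gene, and capitals mark a match on either strand to one of the motifs searched. Aldh1b1 lies at chr5:64858750-64858999 (+), Aldh5a1 at chr17:40560123-40560372 (+) and Aldh9a1 at chr13:82038429-82038678 (+).
Aldh1b1: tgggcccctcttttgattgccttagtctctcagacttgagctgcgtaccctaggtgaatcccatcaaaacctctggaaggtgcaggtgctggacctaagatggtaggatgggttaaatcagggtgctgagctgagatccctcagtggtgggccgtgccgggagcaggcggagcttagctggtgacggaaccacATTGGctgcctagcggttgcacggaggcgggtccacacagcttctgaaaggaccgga
Aldh5a1: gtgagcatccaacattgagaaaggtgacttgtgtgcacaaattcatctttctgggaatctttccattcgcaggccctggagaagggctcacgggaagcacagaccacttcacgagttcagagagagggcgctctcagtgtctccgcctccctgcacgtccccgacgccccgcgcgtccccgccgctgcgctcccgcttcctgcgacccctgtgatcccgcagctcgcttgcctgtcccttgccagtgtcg
Aldh9a1: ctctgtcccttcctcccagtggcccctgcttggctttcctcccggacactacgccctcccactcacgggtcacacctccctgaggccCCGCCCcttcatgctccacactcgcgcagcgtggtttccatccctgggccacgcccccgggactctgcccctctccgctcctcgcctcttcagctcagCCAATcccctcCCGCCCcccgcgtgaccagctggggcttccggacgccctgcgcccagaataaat

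The motifs searched, on both strands, were the GC box GGGCGG, the CCAAT box CCAAT, the TATA box TATAAA, the antioxidant response element TGACNNNGC and the amino acid response element TGATGNAA. Of the 27457 rat windows of the same length, 32.4% hold the GC box, 34.3% the CCAAT box, 13.1% TATAAA, 10.2% TGACNNNGC and 3.27% TGATGNAA. The Aldh1b1 window holds 1 CCAAT box on the opposite strand, whose first base is 57 bases before the start. The Aldh9a1 window holds 2 GC boxes on the opposite strand and 1 CCAAT box. None of the 5 motifs is in the Aldh5a1 window. GC content was 57.6% for Aldh1b1, 61.6% for Aldh5a1 and 68.4% for Aldh9a1, against a median of 52% over all windows. A match is a description of letters and not of a bound site.

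Aldh1b1, one of the acetaldehyde-clearing enzymes of the mitochondrion, was highest in saline pups. Its normalized values ran from 3.28 to 3.84 in saline (median 3.67), 2.79 to 3.57 in Low Protein (median 3.22), 3.04 to 3.30 in MAM (median 3.23) and 2.72 to 3.12 in Poly I:C (median 3.00). Every treated pup lay below the saline median, and all 6 Poly I:C pups, 5 of 6 MAM pups and 3 of 6 Low Protein pups lay below the lowest saline pup. Such a separation of 6 pups from 6 pups, in either direction, was found for 0.492% of the 5086 genes in Poly I:C, 0.786% in MAM and 0.747% in Low Protein, and nothing is read from it for Aldh1b1, which was chosen on it. The mean was 3.63 ± 0.199 (SD, n = 6) in saline and 2.96 ± 0.150 (SD, n = 6) in Poly I:C, a log2 difference of -0.29 or 81.5% of saline. Low Protein (3.20 ± 0.307, SD, n = 6) and MAM (3.20 ± 0.0921, SD, n = 6) lay at log2 differences of -0.18 each, or 88.0% and 88.2% of saline.

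Low Protein and MAM pups had close mean levels of Aldh1b1, with a wider spread in Low Protein. These 2 groups were not used in the choice of the gene, and the log2 difference between them was -0.003 (standard error 0.0574, limma adjusted p = 0.991, exact permutation p = 0.963). The litter means were 3.72 and 3.54 for saline, 3.32 and 3.08 for Low Protein, 3.17 and 3.23 for MAM, and 2.98 and 2.94 for Poly I:C, so each saline litter mean lay above each treated litter mean. Leaving out any single pup or litter moved the log2 difference of Poly I:C from saline between -0.33 and -0.26. The gene was chosen on this difference and the same saline pups, so neither the litter order nor this range is read as support.

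Genes that followed Aldh1b1 most closely over the 24 pups, by Pearson's r of log2 values, were Kiaa0895l (0.78), the globin Cygb (0.78), Mpdu1 (0.76), Pdzd4 (0.75) and the interferon gamma receptor chain Ifngr2 (0.75). Part of this likeness comes from the groups, since the same correlations of deviations from group means were 0.60, 0.61, 0.70, 0.60 and 0.56. Deviations of Aldh1b1 also correlated with the scores of marker lists for other cell types (the mean log2 value of each list), at -0.58 with meninges, -0.52 with microglia and -0.49 with blood. Without the 2 pups farthest from the median score, these values were -0.31, -0.24 and -0.50. The blood score was above the saline mean by 0.27 in Poly I:C, 0.23 in MAM and 0.13 in Low Protein on the log2 scale. Of its 13 listed genes 10 are in the table, and 9 enter the score, which leaves out genes of very low mean value. Summed blood values ran from 2090 to 3610 in saline and from 2650 to 4390 in Poly I:C. Their part in the Aldh1b1 difference was not tested. In such bulk tissue, fewer cells of a type and less RNA per cell cannot be told apart.

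Aldh2, the main mitochondrial enzyme for acetaldehyde, did not differ detectably between groups. Its normalized values ran from 0.789 to 1.02 in saline (median 0.925), 0.743 to 1.23 in Low Protein (median 0.900), 0.700 to 1.14 in MAM (median 0.956) and 0.595 to 1.05 in Poly I:C (median 0.911). All 4 ranges overlapped. The log2 differences of Low Protein, MAM, then Poly I:C from saline were 0.01, -0.01 and -0.08, each with a standard error of 0.138 (exact permutation p = 0.948, 0.937 and 0.615, limma adjusted p = 0.994, 0.977 and 0.888). The sign in MAM turned, to 0.03 with median-of-ratios scaling and 0.04 with upper-quartile scaling, so it gives no direction. A fold of 2.07 separated the highest from the lowest pup, against 1.41 for Aldh1b1.

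Between pups, Aldh2 followed markers of vessels, choroid plexus and meninges. Across deviations from group means in 24 pups, its correlation was 0.87 with the endothelium score (Spearman's rho 0.85), 0.82 with choroid plexus (rho 0.77) and 0.76 with meninges (rho 0.80). Without the 2 farthest pups these were 0.87, 0.77 and 0.76. The genes most like it, picked once the values were known, were the lipid transfer protein gene Pltp (r = 0.91), Kif1c (0.90), the integrin adaptor gene Tln1 (0.90), Emilin1 (0.90) and Bcam (0.90). Littermates and a shared dissection link these points, so no p is given. Aldh2 was also lowest in the pup labelled 3 in 7 of 8 litters. The endothelium and choroid plexus scores were lowest in that pup in most litters. How far these correlations go with the pup number was not tested.

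**Figure D2:**
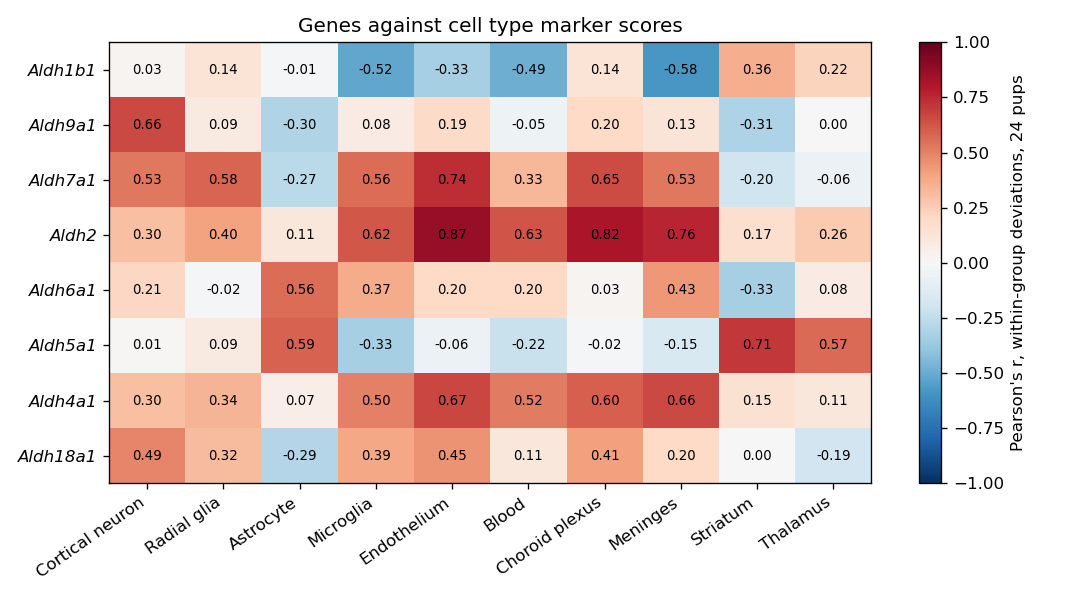
Pearson's r, from -1 to 1 on a color scale, between each gene's log2 value and the mean log2 value of 10 marker lists, both as deviations from the group mean in 24 pups. The highest values are those of Aldh2 with endothelium (0.87) and choroid plexus (0.82), and Aldh5a1 stands out for striatum (0.71).

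Aldh4a1, which turns the proline breakdown product pyrroline-5-carboxylate into glutamate, was not called in any group. Its values ran from 0.592 to 0.700 in saline (median 0.634), 0.540 to 0.739 in Low Protein (median 0.629), 0.588 to 0.697 in MAM (median 0.671) and 0.549 to 0.694 in Poly I:C (median 0.62). The log2 differences were -0.01, 0.03 and -0.03 with a standard error of 0.0743 (exact permutation p = 0.937, 0.552 and 0.671, limma adjusted p = 0.993, 0.862 and 0.940), and the first turned to 0.004 and 0.003 with the other scalings. Within groups Aldh4a1 correlated most with Aldh2 among the members (r = 0.86), then with Aldh7a1 (0.54), and with the endothelium (0.67) and meninges (0.66) scores.

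Aldh18a1 makes pyrroline-5-carboxylate from glutamate and so starts proline and ornithine synthesis. It was higher in Low Protein and Poly I:C pups and not in MAM pups. Its normalized values ran from 0.164 to 0.200 in saline (median 0.182), 0.185 to 0.217 in Low Protein (median 0.195), 0.161 to 0.182 in MAM (median 0.178) and 0.173 to 0.212 in Poly I:C (median 0.207). All 6 Low Protein pups and 5 of 6 Poly I:C pups lay above the saline median, and the ranges overlapped. The log2 difference from saline was 0.14 in Low Protein (standard error 0.0606, limma p = 0.0357, adjusted p = 0.63, exact permutation p = 0.0519), or 110% of saline. It was also 0.14 in Poly I:C (limma p = 0.0317, adjusted p = 0.446, exact permutation p = 0.0628), and -0.05 in MAM (limma adjusted p = 0.719, exact permutation p = 0.329).

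The permutation test is two-sided over 6 pups against 6 pups and its smallest possible p is 0.00216. Neither Aldh18a1 difference from saline passed it, so both calls hold only with the pooled spread of limma. The Low Protein call was also lost without Saline pup 1.3, 2.1 or 2.3, without Low Protein pup 2.1 or 2.2, without either saline litter, and without Low Protein litter 2, where the log2 difference was 0.07. The Poly I:C call was lost without Saline pup 1.3, 2.1 or 2.3, Poly I:C pup 1.2, 2.1, 2.2 or 2.3, either saline litter or Poly I:C litter 2 (0.07). Over all pups and litters left out in turn, the difference stayed between 0.07 and 0.21 in both comparisons. Both calls were also lost with litter means as the unit, with only the 12 pups compared and with a variance trend, at the same differences.

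Among treatments, Aldh18a1 was higher in Low Protein than in MAM by 0.19 on the log2 scale (standard error 0.0606, limma p = 0.00496, adjusted p = 0.293, exact permutation p = 0.00216, the smallest it can give). Its difference of Poly I:C from MAM was also 0.19 (limma p = 0.00434, adjusted p = 0.0817, exact permutation p = 0.0108). Low Protein and Poly I:C differed by 0.003 (limma adjusted p = 0.997, exact permutation p = 0.963). In these contrasts 9.81%, 21.7% and 4.96% of 9713 genes were called. Over the 4 groups together the moderated F test called Aldh18a1 at an unadjusted p under 0.05 (adjusted p = 0.215), as it did 14.9% of the genes in that set. Its closest followers over 24 pups, picked once the values were known, were the alanyl-tRNA synthetase gene Aars (r = 0.83), the mitochondrial alanine aminotransferase gene Gpt2 (0.79), the pyrimidine synthesis gene Umps (0.78), Rbm4 (0.77) and Ftsj3 (0.77). Within groups these correlations were 0.72, 0.66, 0.65, 0.67 and 0.61.

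Of the other genes of proline, ornithine and glutamate metabolism, 12 of 15 listed could be tested. In Low Protein 2 were higher and 1 lower, in MAM none was higher and 2 were lower, and in Poly I:C none was called. For these 3 comparisons, 7.64%, 10.5% and 9.87% of the 9713 genes were called. Whether the 12 genes differ from these shares was not tested. The median log2 difference of the 12 was -0.02, -0.06 and 0.01 in the 3 comparisons, beside -0.01, -0.06 and 0.01 over the 9713 genes. Pycr1, which reduces pyrroline-5-carboxylate to proline one step after Aldh18a1, was higher in Low Protein by 0.39 (standard error 0.0906, limma adjusted p = 0.245, exact permutation p = 0.00866). Odc1, which makes putrescine from ornithine, was higher there by 0.18 (adjusted p = 0.607, exact permutation p = 0.0455). Got2, which pairs glutamate with aspartate in mitochondria, differed by -0.13 (limma adjusted p = 0.65, exact permutation p = 0.0260). In MAM the glutamate dehydrogenase gene Glud1 differed by -0.11 (exact permutation p = 0.00866) and the transaminase gene Got1 by -0.17 (p = 0.0173), both with a limma adjusted p = 0.467. Got2 was named after its value was seen.

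Aldh5a1 oxidizes succinic semialdehyde to succinate, the last step by which GABA carbon enters the citric acid cycle. It was lower in Low Protein and MAM pups than in saline pups, and spread widely between litters in Poly I:C. The normalized values ran from 0.742 to 1.19 in saline (median 0.839), 0.581 to 0.873 in Low Protein (median 0.702), 0.584 to 0.743 in MAM (median 0.695) and 0.518 to 0.956 in Poly I:C (median 0.827). Every MAM pup and 5 of 6 Low Protein pups lay below the saline median, and 5 MAM pups lay below the lowest saline pup. The mean was 0.889 ± 0.161 (SD, n = 6) in saline, 0.717 ± 0.0995 (SD, n = 6) in Low Protein and 0.678 ± 0.0563 (SD, n = 6) in MAM, or 81.0% and 77.0% of saline on the log scale.

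The log2 difference of Aldh5a1 from saline was -0.30 in Low Protein (standard error 0.136, limma p = 0.0360, adjusted p = 0.63, exact permutation p = 0.0368) and -0.38 in MAM (limma p = 0.0110, adjusted p = 0.434, exact permutation p = 0.00433). Poly I:C stood at -0.22 (limma p = 0.126, adjusted p = 0.629, exact permutation p = 0.258). The F test over 4 groups did not call it (adjusted p = 0.351). In Poly I:C the litter means were 0.894 and 0.655, and the difference from saline was -0.46 without litter 1, where it was called, and 0.02 without litter 2. The MAM call was lost without MAM litter 1 (-0.36). The Low Protein call was lost without Saline pup 1.3 or 2.1, Low Protein pup 1.1, 2.1 or 2.3, either saline litter, Low Protein litter 2 or MAM litter 2, and with litter means as the unit, with differences between -0.36 and -0.22 throughout.

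**Figure D3:**
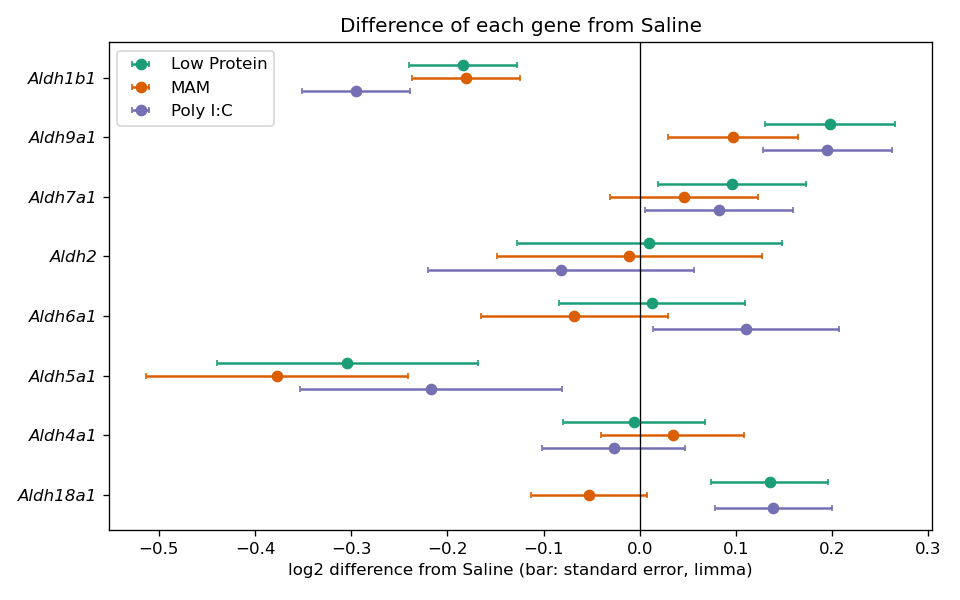
Log2 difference of each gene from Saline, by treatment (6 pups per group), with the standard error from limma as the bar. Aldh5a1 lies at -0.30, -0.38 and -0.22, Aldh9a1 at 0.20, 0.10 and 0.20, and Aldh18a1 at 0.14, -0.05 and 0.14.

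Aldh5a1 moved with striatal tissue markers, which a cortical dissection can include. Its deviations within groups correlated at 0.71 with the striatum score (rho 0.73, and 0.65 without the 2 farthest pups), 0.59 with astrocyte and 0.57 with thalamus markers, the last 2 being 0.35 and 0.32 without the 2 farthest pups. The striatum list holds 7 genes, Drd1 and Drd2 among them, all in the table and none at the offset in all pups. Relative to saline the striatum score was -0.34 in MAM, -0.09 in Poly I:C and -0.31 in Low Protein on the log2 scale, and summed values ran from 7.62 to 16.2 in saline, 4.73 to 10.8 in Low Protein, 6.83 to 8.91 in MAM and 7.05 to 10.6 in Poly I:C. Saline pup 2.1 had both the highest Aldh5a1 value (1.19) and the highest striatum score. Without it the difference was -0.22 in Low Protein, where the call was lost, and -0.29 in MAM, where the call was kept. How much of the Aldh5a1 difference moves with these markers was not tested. Its closest followers, picked once the values were known, were Lrp11 (r = 0.91), the neurofilament gene Nefl (0.88), the GABA-B receptor gene Gabbr1 (0.88), Gpr17 (0.88) and Wdr1 (0.87).

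Of 10 genes listed around the GABA shunt, 8 could be tested, and 3 were lower in Low Protein pups and 1 in MAM pups, with none higher in these 2 groups. These are 37.5% and 12.5% of the 8, beside 7.64% and 10.5% of the 9713 genes. Calls among the 9713 genes also leaned lower, with 461 lower and 281 higher in Low Protein and 797 lower and 226 higher in MAM. The median log2 difference of the 8 was -0.14 in the former and -0.20 in the latter, beside -0.01 and -0.06 over all genes tested. In Low Protein the glutamate decarboxylase genes Gad2 (-0.39, standard error 0.155) and Gad1 (-0.47), which make GABA, and the vesicular GABA transporter gene Slc32a1 (-0.41) were lower by limma, with adjusted p = 0.607, 0.607 and 0.63. Their exact permutation p values were 0.0519, 0.0303 and 0.0693. Gad1 was also lower in MAM (-0.43, adjusted p = 0.467, exact permutation p = 0.00433). In Poly I:C the log2 differences of Gad2, Gad1 and Slc32a1 were -0.22, -0.39 and -0.24, and none of these 3 was called (limma adjusted p = 0.66, 0.527 and 0.682). Gad1, Gad2 and Slc32a1 are genes of GABA neurons, which striatal tissue also holds. How far their differences go with the striatum score was not tested.

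Aldh9a1, a cytosolic enzyme that makes the carnitine precursor from trimethylaminobutyraldehyde and can form GABA from aminobutyraldehyde, was higher in Low Protein and Poly I:C pups. Its values ran from 1.96 to 2.49 in saline (median 2.28), 2.12 to 2.91 in Low Protein (median 2.57), 2.32 to 2.43 in MAM (median 2.42) and 2.43 to 2.76 in Poly I:C (median 2.56). All Poly I:C and MAM pups and 5 of 6 Low Protein pups lay above the saline median, and 5 Low Protein and 4 Poly I:C pups lay above the highest saline pup. The mean was 2.25 ± 0.227 (SD, n = 6) in saline, 2.58 ± 0.275 (SD, n = 6) in Low Protein, 2.39 ± 0.0476 (SD, n = 6) in MAM and 2.56 ± 0.128 (SD, n = 6) in Poly I:C.

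The log2 difference of Aldh9a1 was 0.20 in Low Protein (standard error 0.0674, limma p = 0.00724, adjusted p = 0.479, exact permutation p = 0.0519) and 0.20 in Poly I:C (limma p = 0.00802, adjusted p = 0.309, exact permutation p = 0.0173). In MAM it was 0.10 (limma adjusted p = 0.527, exact permutation p = 0.173), and it passed the limma threshold there with median-of-ratios scaling (0.14) and upper-quartile scaling (0.15). None of the contrasts between treatments was called by limma: Poly I:C and Low Protein differed by -0.003, and each lay 0.10 above MAM. The exact permutation test gave p = 0.965 for the first, 0.169 for Low Protein against MAM and 0.00649 for Poly I:C against MAM. The F test over 4 groups called Aldh9a1 (adjusted p = 0.226), where 16.4% of the 5086 genes were called and 0.413% after adjustment. The Low Protein call was lost without Low Protein litter 1 (0.11), while the Poly I:C call was kept whichever pup or litter was left out, at 0.16 to 0.23.

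Within groups Aldh9a1 correlated most with the cortical neuron score (r = 0.66, rho 0.55), a value that dropped to 0.35 without the 2 farthest pups. That score differed from saline by -0.05 in MAM and -0.01 in each of the other groups. The genes most like it, picked once the values were known, were Klhl25 (r = 0.76), the aminoacylase gene Acy1 (0.75), the activin subunit gene Inhbb (0.75), Dpy19l1 (0.74) and Sfrp1 (0.74).

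Aldh7a1 oxidizes the semialdehyde of aminoadipate in lysine breakdown. No difference between groups was detected in it, with values from 0.989 to 1.17 in saline (median 1.10), 0.974 to 1.30 in Low Protein (median 1.22), 1.02 to 1.24 in MAM (median 1.13) and 0.963 to 1.27 in Poly I:C (median 1.18). In Low Protein 4 of 6 pups lay above the highest saline pup and 1 below the lowest. The log2 differences were 0.10, 0.05 and 0.08 with a standard error of 0.0770 (exact permutation p = 0.268, 0.450 and 0.294, limma adjusted p = 0.766, 0.805 and 0.763). Without Poly I:C litter 1 the last was 0.19 and was called, and without litter 2 it was -0.03. Over the 24 pups Aldh7a1 followed the splicing regulator gene Ptbp1 (r = 0.91) and the intermediate filament gene Vim (0.90), then Ezr (0.89), Nfatc4 (0.88) and Stk40 (0.87). That list was picked once the values were known, and Vim is itself 1 of the 7 radial glia genes. Within groups Aldh7a1 correlated at 0.74 with the endothelium score, 0.65 with choroid plexus and 0.58 with radial glia. Without the 2 farthest pups these were 0.61, 0.50 and 0.44. Among the members it correlated at 0.64 with Aldh18a1, 0.68 with Aldh2 and 0.53 with Aldh9a1.

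**Figure D4:**
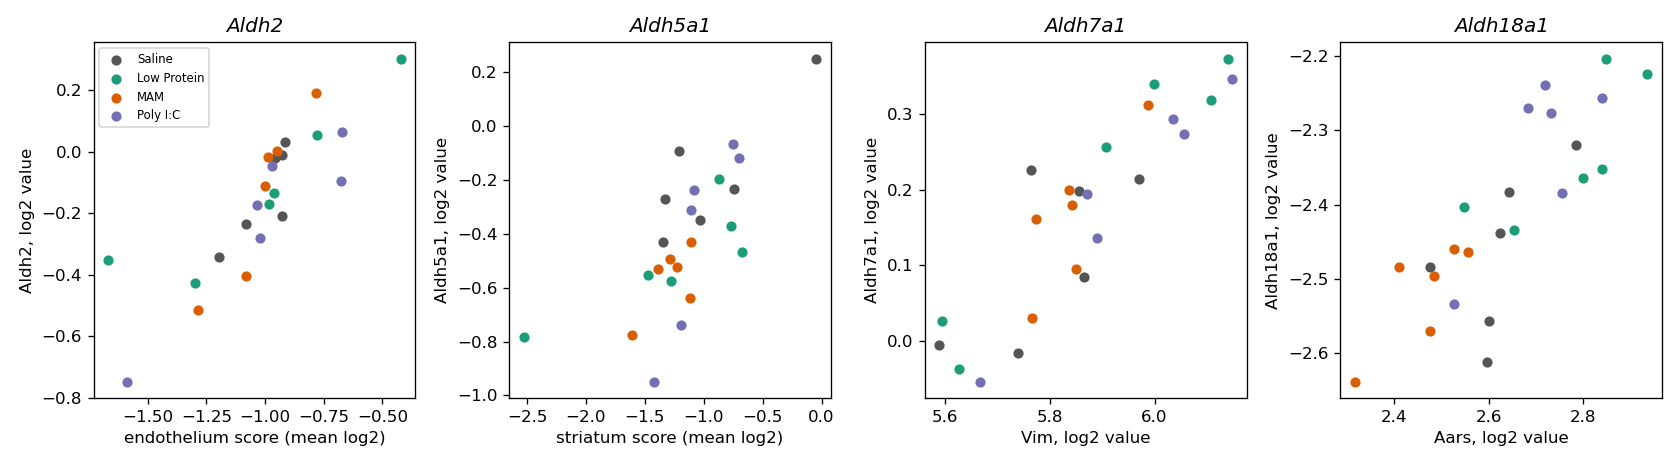
Each panel plots the log2 value of 1 gene (vertical axis) against a marker score or another gene's log2 value (horizontal axis) in 24 pups colored by group. Aldh2 follows the endothelium score, Aldh5a1 the striatum score, with Saline pup 2.1 at the upper right, Aldh7a1 follows Vim (r = 0.90) and Aldh18a1 follows Aars (r = 0.83).

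Of 14 genes listed for lysine, carnitine and choline metabolism, in which Aldh7a1 and Aldh9a1 act, only 4 could be tested. Shmt1, a serine hydroxymethyltransferase, was called higher in Low Protein (0.29, standard error 0.107), MAM (0.40) and Poly I:C (0.24), with adjusted p = 0.595, 0.394 and 0.472. Its exact permutation p values were 0.0152, 0.00866 and 0.0541. Its mean value was low beside the filter of 0.1, at 0.121 in saline and 0.142 to 0.16 in the treated groups. All 3 calls use the same saline pups and are not independent of each other. The other 3 genes were not called. Of the 9713 genes, 7.64%, 10.5% and 9.87% were called in these comparisons.

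Aldh6a1 converts methylmalonate semialdehyde, from valine and thymine, to propionyl-CoA. Its values ran from 0.718 to 1.02 in saline (median 0.829), 0.709 to 1.01 in Low Protein (median 0.796), 0.701 to 0.949 in MAM (median 0.770) and 0.799 to 0.981 in Poly I:C (median 0.881). In Poly I:C 5 of 6 pups lay above the saline median, and none lay outside the saline range. The log2 differences were 0.01, -0.07 and 0.11 with a standard error of 0.0968 (exact permutation p = 0.922, 0.532 and 0.253, limma adjusted p = 0.986, 0.778 and 0.752). With a term for the Y-linked gene Eif2s3y, above 0.5 in 2 of 6 saline, 4 of 6 Low Protein, 4 of 6 MAM and 2 of 6 Poly I:C pups, the first turned to -0.04. Aldh6a1 followed the integrin gene Itgb1 (r = 0.87) and little of the other members (r within groups from -0.31 to 0.21).

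Branched-chain amino acid breakdown, the path of Aldh6a1, was represented by 18 tested genes of 25 listed. With Low Protein 2 were higher, with MAM 2 were higher and 1 lower, and with Poly I:C 1 was lower. Calls made up 11.1%, 16.7% and 5.56% of the 18, beside 7.64%, 10.5% and 9.87% of the 9713 genes. The gene lower in Poly I:C was Acat1, which splits acetoacetyl-CoA in mitochondria. Acat1 had a mean of 2.08 in saline and 1.74 in Poly I:C (log2 difference -0.26, standard error 0.0578, limma adjusted p = 0.180, exact permutation p = 0.00433). Its F test over the 4 groups had an adjusted p of 0.0191. Bckdha, a subunit of the branched-chain keto acid dehydrogenase, was higher in MAM (0.20, exact permutation p = 0.00433), Mccc2 of leucine breakdown was higher in Low Protein (0.18, p = 0.0238), and the transaminase gene Bcat1 was lower in MAM (-0.19, p = 0.00433). Their limma adjusted p values were 0.434, 0.602 and 0.456. Ivd, named after its value was seen, was higher in Low Protein (0.12) and MAM (0.13), each with an exact permutation p = 0.00216 (limma adjusted p = 0.63 and 0.467). The median difference of the 18 genes was 0.03, -0.01 and -0.04.

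Among 12 other listed aldehyde dehydrogenases 5 could be tested. MAM gave 1 call among these 5 genes, Poly I:C gave 2 and Low Protein gave 0. Aldh1l2, the mitochondrial formyltetrahydrofolate dehydrogenase, was lower in MAM (-0.27, standard error 0.0877, limma adjusted p = 0.426, exact permutation p = 0.0130) and Poly I:C (-0.27, adjusted p = 0.323, permutation p = 0.0411). Its cytosolic counterpart Aldh1l1, an astrocyte marker, was lower in Poly I:C (-0.57, adjusted p = 0.343, exact permutation p = 0.0368). Of 18 genes listed for alcohol and aldehyde handling 10 could be tested. Calls made up 10.0% of these with Low Protein, 10.0% with MAM and 0% with Poly I:C. The shares over the 9713 genes, in that order, were 7.64%, 10.5% and 9.87%. Whether either list differs from these shares was not tested. The glutathione transferase genes Gsta4 (0.32 in Low Protein, exact permutation p = 0.0476) and Gstp1 (0.11 in MAM, p = 0.0325) were higher. Their limma adjusted p values were 0.57 and 0.467, and none was called in Poly I:C.

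The labels number the pups of a litter from 1 to 3, and pup 3 stood apart within litters in several members. Aldh2 was lowest in pup 3 in 7 of 8 litters, by 0.39 on the log2 scale below the mean of its littermates on average (range of the difference -0.64 to -0.11). Aldh4a1 was lowest there in 7 of 8 litters (mean difference -0.18) and Aldh7a1 in 6 of 8 (-0.16), and neither was highest there in any litter. Aldh1b1 showed little of this, with a mean difference of -0.02 and the lowest value in pup 3 in 5 litters. Pup 3 was also highest in all 8 litters on the first principal component of the deviations from group means, which held 26.2% of their variance. Each group holds 2 such pups. How far the correlations of Aldh4a1 and Aldh7a1 with marker scores go with the pup number was not tested either. What the number stands for is not given in the sources used here.

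**Figure D5:**
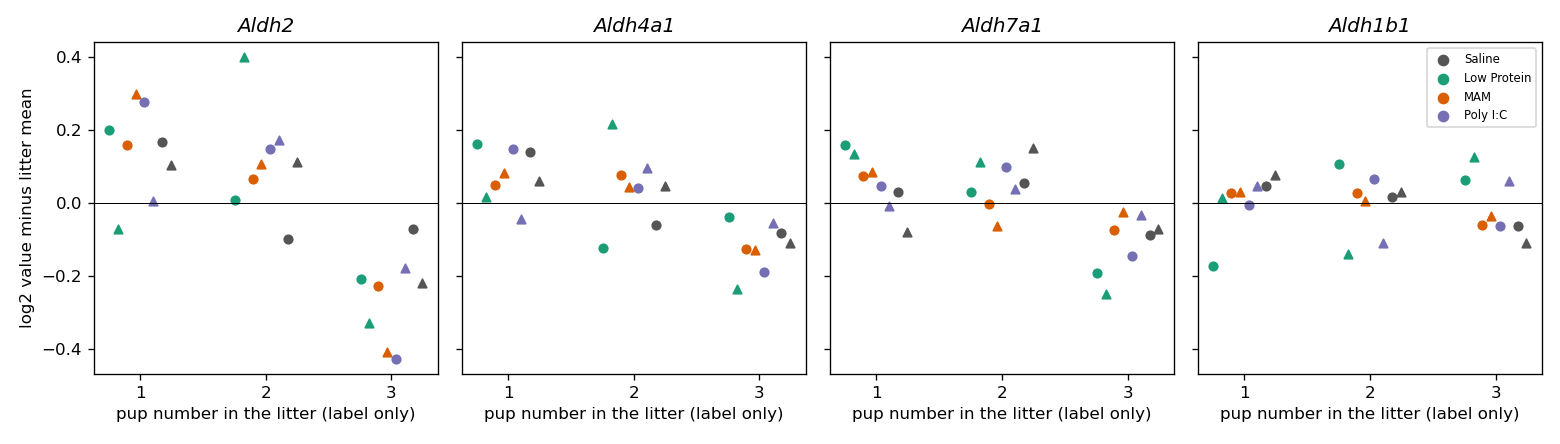
Log2 value of Aldh2, Aldh4a1, Aldh7a1 and Aldh1b1 minus the mean of the litter (vertical axis), by pup number in the label (horizontal axis, a name and not an order), with circles for litter 1 and triangles for litter 2 of each group. For Aldh2 all 8 pups numbered 3 lie below their litter mean.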

How the data were processed

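Polyadenylated RNA of 24 pups was sequenced (TruSeq Stranded mRNA, paired reads). Per the study's methods, the authors trimmed reads in Partek Flow at phred 30 with a minimum length of 25, aligned them to rn6 with STAR 2.4.1d, quantified RefSeq transcripts and deposited TPM values with an offset of 0.0001 added. The deposited table gives no counts.

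The log2 values were compared by limma 3.58.1 (R 4.3.3), with all 24 pups in a fit by group and Benjamini-Hochberg adjustment. The main filter, a mean above 1 in every group, follows the study, and members below it were tested at a mean above 0.1. Calls used the study's p threshold of 0.05 alone. The minimum log fold change that the study adds for Poly I:C and Low Protein was not applied here. Single members were also compared by exact two-sided permutation tests (SciPy 1.17.1). The fit was tested on simulated data. Members, lists and tests were chosen with earlier results of these data known. All 8 members are named, at most 4 called genes per list by smallest p, and the 5 genes most like Aldh1b1. The plan tested Aldh1b1 in Low Protein and MAM against saline, but the choice had used those saline pups, so these values are given without a test. Reads were estimated with gene spans from GRCr8 and not rn6, with 86.7% of genes matched by symbol. The alternatives, 44 settings, covered filter, pseudocount, scaling, pups, litters, a block, variance trend and, added after the data were seen, a term for Y-linked expression, contrasts between treatments, and permutation tests of these and of list genes. The Poly I:C result of the GABA shunt list is not reported here.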

Additional observations from a re-analysis of the deposited data

How the results depend on the processing

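Of the genes tested, limma called 506 for Poly I:C, 572 for MAM, 419 for Low Protein and 835 by the F test. With a mean above 0.1 these were 959, 1023, 742 and 1444, with no filter beyond the offset 1194, 1270, 911 and 1615, and with litter means 312, 250, 262 and 343. Leaving out a pup or litter gave 228 to 964 (lowest without Poly I:C litter 2, highest without litter 1), 163 to 862 (lowest without Saline litter 1, highest without Saline pup 2.1), 271 to 530 (lowest without Saline litter 2) and 455 to 1004 (lowest without MAM litter 1). Genes called higher were 156 of 572 in MAM as deposited, 306 of 505 with median-of-ratios and 373 of 495 with upper-quartile scaling, and in Poly I:C 216 of 506 as deposited and 128 of 588 with upper-quartile scaling. The cause was not tested.

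Signs turned only in comparisons that were not called in the main fit. The scalings gave 0.027 and 0.042 for Aldh2 in MAM, 0.004 and 0.003 for Aldh4a1 in Low Protein, and upper-quartile scaling 0.001 for Aldh18a1 in MAM. The Y-linked term gave -0.041 for Aldh6a1 in Low Protein. Leaving out pups or litters, the log2 differences spanned -0.075 to 0.071, -0.078 to 0.063 and -0.192 to 0.027 for Aldh2 against saline in the order Low Protein, MAM, Poly I:C, -0.050 to 0.040 and -0.057 to 0.011 for Aldh4a1 in Low Protein and Poly I:C, -0.455 to 0.022 for Aldh5a1 in Poly I:C, -0.055 to 0.082 and -0.136 to 0.001 for Aldh6a1 in Low Protein and MAM, and -0.015 to 0.108 and -0.025 to 0.188 for Aldh7a1 in MAM and Poly I:C. Aldh18a1 lost its Low Protein and Poly I:C calls also with log2(value + 0.1), log2(value + 1), only the 12 pups compared, litter means and limma-trend, and in Poly I:C with upper-quartile scaling, at differences of 0.02 to 0.14.

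With the replicate number as a block, 652, 794, 596 and 1153 genes were called and no member changed its call. Same-numbered pups correlated from -0.23 to 0.47 with saline, and 5 of 18 treated pups were closest to their own number, so the numbers were not taken to pair the samples. Pup 3 nevertheless shared a shift over the litters, and with the block the standard error of the Aldh2 differences was 0.0817 against 0.138 without it.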
